A study of Sus scrofa and Rattus norvegicus with 8 samples.

Results

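The genes of the collagen chains were examined in RNA-seq libraries of pig backfat. Members were the genes whose symbol in the pig name table was COL, a number, A and a number, and 38 of the 25880 gene IDs of the pig table met that rule, all among its 14844 named nuclear genes. The name table held 40 such symbols. The IDs of COL4A1 and COL19A1 had no row in the table used here, so the genes have no value.

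Each library was made from the backfat (upper layer), a subcutaneous white adipose tissue, of 1 of 6 adult female Bama pigs aged 2 years. No treatment or genotype is given for these pigs, and they form 1 group, so no groups were compared. The spread given is that between libraries. With 1 library per pig, differences between pigs and differences between libraries cannot be told apart. A second group of the study, 2 pools of inguinal white adipose tissue of adult female SD rats aged 32 weeks, is not used here, because none of its gene IDs was named. Expression was measured in TPM, a transcript abundance that is corrected for transcript length and scaled to 1 total in each library, so that levels of different genes of a library can be set side by side. The files hold no read counts and the depth is unknown. In bulk tissue, fewer cells of a type and less RNA per cell cannot be told apart.

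Replicates 4 and 5 stood apart from the rest. Named nuclear genes held 3.34% and 4.73% of the TPM in them, against 24.1% to 26.3% in the other 4 libraries, and the 13 mitochondrially encoded protein genes held 0.209% and 0.298% against 10.8% to 21.2%. Levels were therefore rescaled to a sum of 1000000 over the named nuclear genes of each library. These rescaled TPM are used throughout, unless deposited TPM are named, and the class shares, ratios and spread that these 2 libraries move most are also given without them. The label of the tissue was checked against adipocyte markers (ADIPOQ, PLIN1, FABP4, LPL, CIDEC and PPARG), of which 6 of 6 were named and whose summed level lay between 18196 and 35972 rescaled TPM. Keratinocyte markers summed to at most 2.11 rescaled TPM, skeletal muscle markers to at most 11.0 and cartilage markers to at most 5.86. The keratinocyte genes KRT5 and KRT14 and the muscle genes MYH1, MYH2 and MYH7 had no named ID, so that the first and the second of these sums rest on 3 genes each.

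Collagens are proteins of the extracellular matrix in which chains wind into a triple helix. In the helix a glycine recurs at a fixed step, written Gly-X-Y, where X and Y are often proline and hydroxyproline. Types I, III and V form banded fibrils, type IV forms the network of basement membranes, type VI forms beaded microfilaments around cells such as adipocytes, and the fibril-associated collagens with interrupted helices (FACITs) lie on fibrils made by others. In white adipose tissue most fibrillar collagen is made by fibroblasts and adipocyte progenitors, while adipocytes are wrapped in a basement membrane and in type VI microfilaments.

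The repeat is visible in the genes. Coding exons of 54 bases hold 6 Gly-X-Y triplets, and a fibrillar gene has many of them. To show the repeat and where the fibrillar chains differ in base composition, the 5′-most coding exon of 54 bases in which each of the 6 triplets opens with a glycine codon is printed for the 6 chains of types I, III and V, 5′ to 3′ on the coding strand, from the RefSeq annotation of Sscrofa11.1. Capitals mark the glycine codon that opens each triplet, and a further glycine codon of COL5A1, gga, is left in lower case.
COL1A1, coding exon 8, chr12:26393098-26393151, minus strand: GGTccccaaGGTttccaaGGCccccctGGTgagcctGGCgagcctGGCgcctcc
COL1A2, coding exon 8, chr9:74184187-74184240, plus strand: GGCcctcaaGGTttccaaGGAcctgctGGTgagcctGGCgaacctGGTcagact
COL3A1, coding exon 6, chr15:93571887-93571940, plus strand: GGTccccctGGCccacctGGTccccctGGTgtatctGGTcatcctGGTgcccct
COL5A1, coding exon 15, chr1:274015193-274015246, plus strand: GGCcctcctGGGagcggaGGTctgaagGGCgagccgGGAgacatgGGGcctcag
COL5A2, coding exon 5, chr15:93674755-93674808, minus strand: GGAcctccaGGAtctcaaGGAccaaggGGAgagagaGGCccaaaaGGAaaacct
COL5A3, coding exon 15, chr2:68858344-68858397, minus strand: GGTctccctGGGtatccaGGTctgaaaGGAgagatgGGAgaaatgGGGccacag

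The choice of exons fixed the step of the capitalised glycine codons, whereas the last bases of the codons were free to differ. Of the 18 codons of each exon, 10 end in G or C in COL1A1, 5 in COL1A2, 4 in COL3A1, 12 in COL5A1, 3 in COL5A2 and 8 in COL5A3. Over all exons of this kind, the share of last codon bases that are G or C was 36.5% in COL1A1 (21 exons) and 61.1% in COL5A1 (28 exons). It was 25.1% in COL1A2 (23 exons), 23.1% in COL3A1 (24 exons), 22.2% in COL5A2 (24 exons) and 43.7% in COL5A3 (31 exons). In these exons COL1A1 was thus richer in G and C than COL1A2, its partner in type I fibrils, and COL5A1 was richer than COL5A2, its partner in type V.

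Exon lengths followed the class of the chain. In the longest RefSeq transcripts, which were found for 37 of the 38 members (COL6A1 had no entry under its symbol), 520 of 635 wholly coding exons of the fibrillar genes (81.9%) had a length that is a multiple of 9 bases, the length of a Gly-X-Y triplet, and 303 (47.7%) were of 54 bases. The FACIT genes had 178 of 331 such exons (53.8%), of which 86 were of 54 bases. Of the type IV exons, 110 of 231 (47.6%) were multiples of 9 bases but only 9 were of 54 bases, and of the type VI exons, 69 of 144 (47.9%) and 11. The transmembrane collagens had 104 of 154 (67.5%) and the multiplexins 29 of 79 (36.7%). Among the other named nuclear genes, 16571 of 122351 coding exons (13.5%) were multiples of 9 bases and 482 (0.394%) were of 54 bases.

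**Figure D1:**
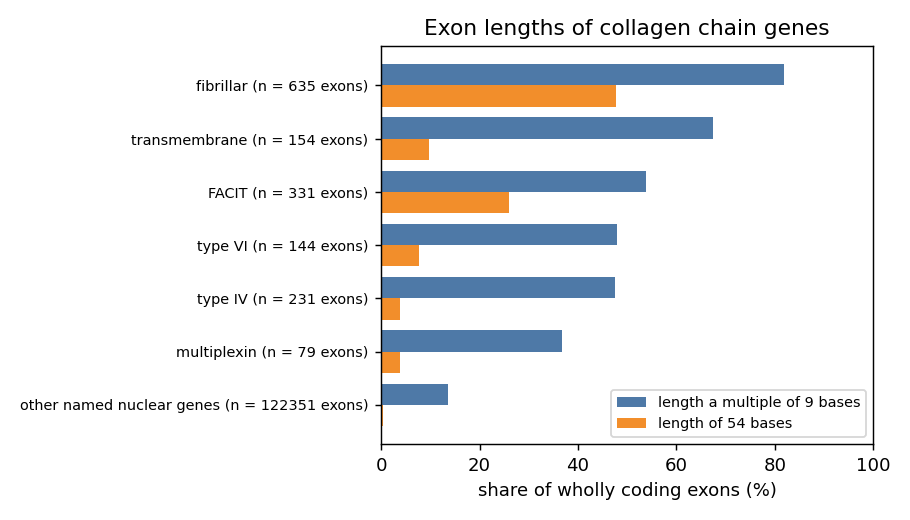
Share of wholly coding exons, in percent, whose length is a multiple of 9 bases or is 54 bases, for 6 classes of collagen genes and for the other named nuclear genes of the table. The fibrillar genes had the highest shares, 81.9% and 47.7%, and the other named nuclear genes the lowest, 13.5% and 0.394%.

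Collagen transcripts held 1.79% ± 0.681 (SD, n = 6) of the TPM of the named nuclear genes. The share was 3.03% in replicate 1, 1.62% in replicate 2, 1.58% in replicate 3, 0.947% in replicate 4, 1.87% in replicate 5 and 1.72% in replicate 6. Replicate 1 was thus highest and replicate 4 lowest, and replicate 5 lay within the range of the others. In deposited TPM the members summed to 7559, 3908, 4138, 316, 884 and 4545 in replicates 1 to 6, with both replicates 4 and 5 below the rest, as their smaller share of named nuclear TPM sets.

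A few chains made up most of this. The 3 chains of types I and III held 71.4% ± 7.50 (SD, n = 6) of the summed collagen TPM, between 64% in replicate 6 and 83.6% in replicate 5. Of the 38 members, 27 had a mean of at least 1 rescaled TPM, 18 had a mean of at least 10, and 11 had a mean under 1. The median of the members' means was 7.94 rescaled TPM, below the 16.7 of all named nuclear genes, although COL3A1 ranked 8 among the 14844. At over 0.1 deposited TPM, the threshold of the study, 34, 34, 32 and 33 members were detected in replicates 1, 2, 3 and 6, and 20 and 21 in replicates 4 and 5. This threshold was stricter in replicates 4 and 5, where named nuclear genes held 3.34% and 4.73% of the TPM, against 24.1% to 26.3%. In at least 1 library, 35 members were detected at over 0.1 deposited TPM and 38 at over 0.1 rescaled TPM.

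**Figure D2:**
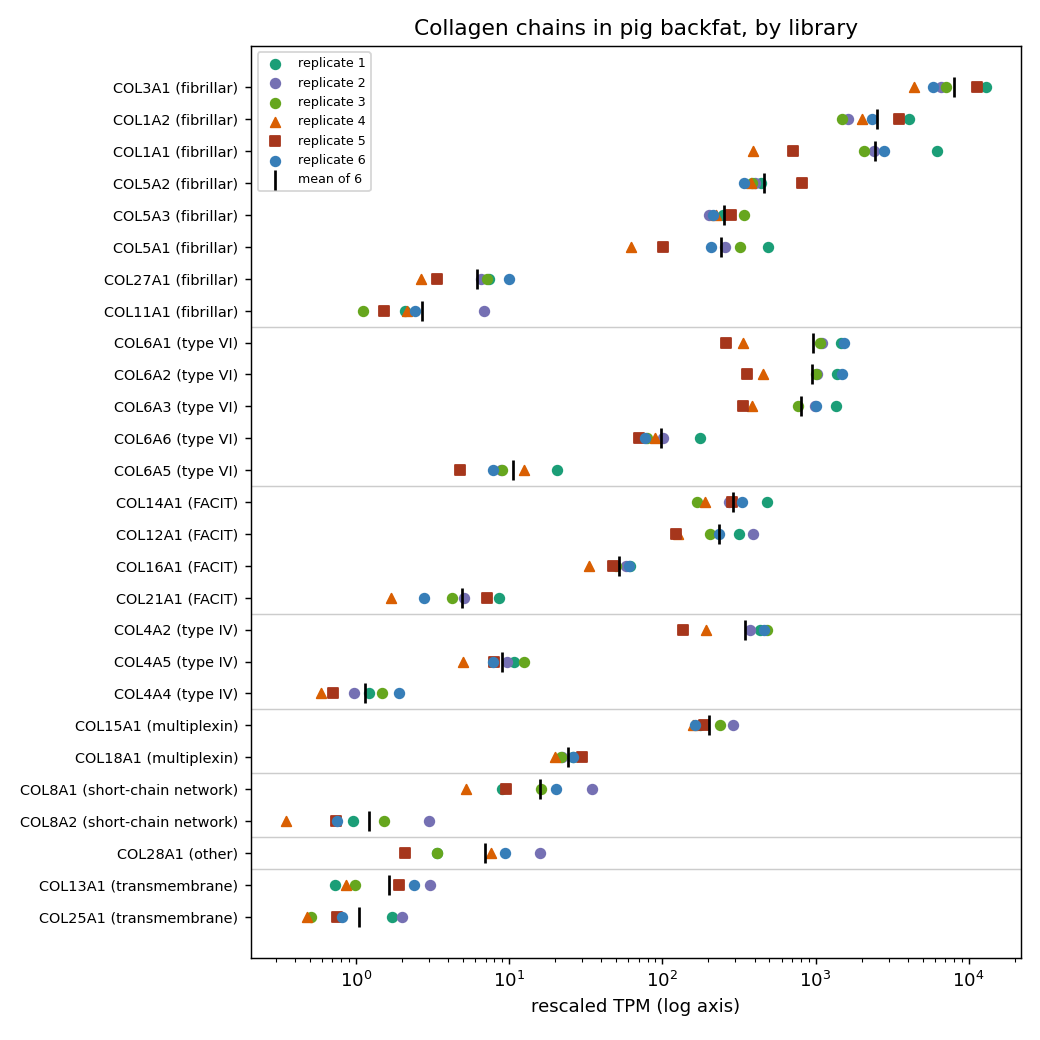
Level of each collagen chain with a mean of at least 1 rescaled TPM, on a log axis, in each of the 6 pig libraries (points, by replicate), ordered by class and mean; black bars are the means of the 6. COL3A1 led with 4378 to 12882 rescaled TPM, and replicates 4 (triangles) and 5 (squares) were the 2 lowest for COL1A1, COL5A1, COL6A1, COL6A2, COL6A3 and COL4A2 but not for COL1A2, COL3A1, COL5A2 or COL5A3.

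Among the classes, the fibrillar chains held 77.1% ± 7.78 of the summed collagen TPM, type VI 16.0% ± 6.35, the FACITs 3.32% ± 0.760, type IV 2.11% ± 0.867, without COL4A1, and the multiplexins 1.40% ± 0.500 (SD, n = 6 each). The short-chain network collagens held 0.102% ± 0.0727, COL28A1 0.0460% ± 0.0372 and the transmembrane collagens 0.0252% ± 0.0111. The fibrillar share was 80.4% in replicate 1, 71.0% in replicate 2, 73.8% in replicate 3, 78.7% in replicate 4, 90.0% in replicate 5 and 68.5% in replicate 6. That of type VI was 14.5%, 19.9%, 18.6%, 13.5%, 5.51% and 23.8% in the same order. Replicates 4 and 5 had the lowest type VI shares, while the highest fibrillar shares were those of replicates 5 and 1. Without replicates 4 and 5 the mean fibrillar share was 73.4% and that of type VI 19.2%.

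**Figure D3:**
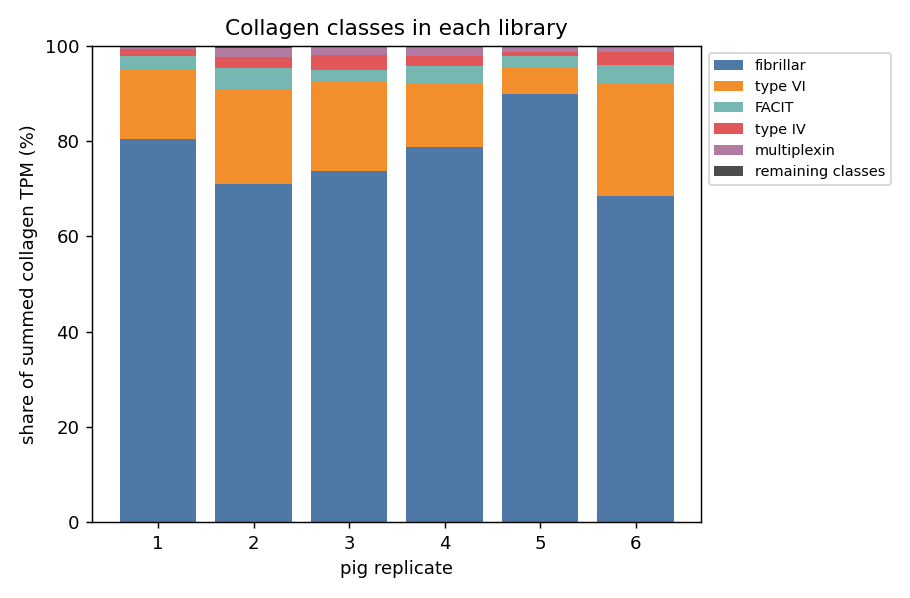
Share of the summed collagen TPM, in percent, held by each class of chain in each of the 6 pig libraries, stacked to 100. Fibrillar chains held between 68.5% in replicate 6 and 90.0% in replicate 5, and type VI between 5.51% in replicate 5 and 23.8% in replicate 6.

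The fibrillar class was led by COL3A1 (ENSSSCG00000016034), the single chain of type III collagen, a fibril-forming collagen of soft and distensible tissues. Its level was 12882, 6587, 7060, 4378, 11359 and 5892 rescaled TPM in replicates 1 to 6, a mean of 8026 ± 3333 (SD, n = 6), and it was the highest collagen chain in 6 of 6 libraries. Replicate 4 was its lowest library and replicate 5 its second highest.

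COL1A2 (ENSSSCG00000015326), which encodes the α2 chain of type I collagen, had 4076, 1634, 1483, 2015, 3533 and 2333 rescaled TPM (mean 2512 ± 1058, SD, n = 6). COL1A1 (ENSSSCG00000036135), which encodes the more numerous α1 chain of the same fibrils, had 6180, 2414, 2058, 391, 716 and 2811 (mean 2428 ± 2071, SD, n = 6). The means of both genes were close, but the libraries were not: COL1A1 was the higher gene in replicates 1, 2, 3 and 6, and COL1A2 was the higher in replicates 4 and 5. Without these 2 libraries the mean was 3366 for COL1A1 and 2381 for COL1A2. COL1A1 lies on chr12:26379087-26397180 (minus strand) and COL1A2 on chr9:74174484-74210407 (plus strand).

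The type V chains, which take part in starting type I fibrils and limit their width, showed a like split. COL5A1 (chr1:273934219-274083264, plus strand) had 490, 255, 323, 62.6, 101 and 209 rescaled TPM, with replicates 4 and 5 below the other 4. COL5A2 had 438, 400, 385, 376, 816 and 339, with replicate 5 highest and replicate 4 inside the range of the others. COL5A3, a chain of a rarer form of type V, had 248, 201, 343, 224, 279 and 214, and replicates 4 and 5 both lay inside that range. Their means were 240 ± 156, 459 ± 178 and 251 ± 52.6 (SD, n = 6). Those of COL5A1 and COL5A3 were close, but COL5A3 was the higher gene in 4 of 6 libraries, and this pair was not tested.

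COL3A1 and COL5A2 are neighbours on chromosome 15. COL3A1 covers chr15:93556914-93595678 on the plus strand and COL5A2 chr15:93611856-93981131 on the minus strand, with their 3′ ends facing each other across 16177 bases. The remaining fibrillar chains were rare. COL27A1, which is best known from cartilage, had a mean of 6.19 rescaled TPM, and COL11A1, a cartilage fibril chain related to COL5A1, had 2.09, 6.81, 1.12, 2.14, 1.52 and 2.41, with the highest value in replicate 2. COL11A2 and COL24A1 had means of 0.631 and 0.416 rescaled TPM. COL2A1, the main fibril chain of cartilage, was listed at 0 in 3 libraries and reached at most 0.372 in the others.

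Type VI collagen is assembled from an α1 chain, an α2 chain and an α3 chain or an alternative to it. COL6A1 had 1467, 1110, 1073, 336, 259 and 1526 rescaled TPM in replicates 1 to 6, COL6A2 had 1373, 1016, 1006, 454, 359 and 1488, and COL6A3, the large chain from whose end endotrophin is cut, had 1353, 985, 769, 383, 337 and 1010 (means 962 ± 547, 949 ± 463 and 806 ± 393, SD, n = 6). For each of the 3 genes replicates 4 and 5 were the lowest libraries. Within a library the 3 levels stayed close, and COL6A1 exceeded COL6A2 in 4 of 6 libraries and COL6A2 exceeded COL6A3 in 6 of 6.

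The chains that can stand in for α3 were less abundant, and replicates 4 and 5 were not their 2 lowest libraries. COL6A6 had 175, 100.5, 79.6, 90.0, 70.1 and 76.7 rescaled TPM, and COL6A5 had 20.6, 8.78, 9.03, 12.6, 4.74 and 7.83. Both genes had their highest value in replicate 1 and their lowest in replicate 5, and in both replicate 4 lay inside the range of the others. COL6A6 and COL6A5 follow each other on the minus strand of chromosome 13, 43574 bases apart.

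Of type IV, whose α1 and α2 chains are found in most basement membranes, only the α2 gene was measured here. COL4A2 (chr11:76996885-77161617, plus strand) had 435, 376, 484, 192, 136 and 462 rescaled TPM (mean 347 ± 148, SD, n = 6), and replicates 4 and 5 were again lowest. COL4A5, a chain of specialised basement membranes, had 10.7, 9.64, 12.6, 5.00, 7.90 and 7.88, and its neighbour on the X chromosome, COL4A6, had 1.52, 1.01, 0.733, 0.294, 0.614 and 1.05. COL4A4 and COL4A3, which overlap head to head by 663 bases on chromosome 15, had means of 1.15 and 0.451 rescaled TPM. The measured type IV chains other than COL4A2 were thus rare in backfat, and nothing can be said of COL4A1.

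Among the FACITs, COL14A1 and COL12A1, which bind to type I fibrils, were the most abundant. COL14A1 had 480, 273, 169, 190, 285 and 332 rescaled TPM, with replicate 3 lowest, and COL12A1 had 318, 390, 203, 126, 124 and 235, with replicates 4 and 5 lowest. COL16A1 had 61.5, 57.6, 50.1, 33.3, 47.6 and 60.4. Of the other FACITs, COL21A1 had a mean of 4.92. COL9A1 and COL9A3, type IX chains of cartilage, were listed at 0 in 3 libraries and in 1, and COL22A1 in 1, and none of the 3 exceeded 0.696 rescaled TPM in any library.

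The multiplexins are basement membrane collagens whose ends can be cut to yield fragments such as endostatin. COL15A1, which links basement membranes to the fibrils below them, had 177, 291, 239, 158, 186 and 163 rescaled TPM, and COL18A1, the source of endostatin, had 25.9, 22.2, 21.8, 19.9, 29.9 and 26.0. With all 6 libraries kept, COL18A1 had the smallest CV (SD divided by the mean) of the 27 chains with a mean of at least 1, at 0.151.

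The remaining classes were rare. COL8A1, a short-chain network collagen of vessel walls and of the cornea, had 9.03, 34.8, 16.1, 5.18, 9.51 and 20.1 rescaled TPM and COL8A2 had 0.961, 2.98, 1.52, 0.350, 0.742 and 0.748. Both had their highest value in replicate 2 and their lowest in replicate 4. COL10A1, the chain of hypertrophic cartilage, was listed at 0 in 4 libraries. COL28A1, which is known from peripheral nerve, had 3.36, 15.8, 3.38, 7.62, 2.08 and 9.39. Of the transmembrane collagens, COL13A1 and COL25A1 had means of 1.65 and 1.04 rescaled TPM, and COL23A1 and COL17A1 of 0.844 and 0.660.

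In the order of the means, some neighbours kept their order in each pig and others did not. COL3A1 exceeded COL1A2 in 6 of 6 libraries and COL1A1 exceeded COL6A1 in 6 of 6, but COL1A2 exceeded COL1A1 in 2 and COL5A1 exceeded COL12A1 in 2. From COL15A1 on to COL6A6, COL16A1 and COL18A1, each step held in 6 of 6 libraries.

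Ratios of chains were then compared with 1 in 9 pairs, each with an exact two-sided permutation test that flips the signs of the log2 ratios over pigs, and adjusted over the 9 by the Benjamini-Hochberg method. With 6 pigs the smallest p the exact test allows is 0.03125. None of the 9 pairs passed an adjusted p of 0.05, while 5 pairs reached the smallest p before adjustment, with an exact adjusted p of 0.05625. The 10th pair that was planned, COL4A1 to COL4A2, has no value.

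The ratio of COL1A1 to COL1A2 was 1.52, 1.48, 1.39 and 1.20 in replicates 1, 2, 3 and 6, and 0.194 and 0.203 in replicates 4 and 5. The log2 ratio averaged -0.46 ± 1.46 (SD, n = 6; exact permutation p = 0.5, adjusted 0.5), and 0.48 ± 0.15 (SD, n = 4) without replicates 4 and 5. The direction of the mean thus turns with these 2 libraries, and in each of the other 4 COL1A1 was the higher gene.

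COL5A1 to COL5A2 showed the same split. This ratio was 1.12, 0.637, 0.838 and 0.616 in replicates 1, 2, 3 and 6 and 0.166 and 0.123 in replicates 4 and 5 (log2 mean -1.18 ± 1.31, SD, n = 6; exact permutation p = 0.0625, adjusted 0.09375). Without the latter 2 the log2 mean was -0.36 ± 0.40 (SD, n = 4).

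In type VI the split was smaller. COL6A1 to COL6A2 was 1.07, 1.09, 1.07 and 1.03 in replicates 1, 2, 3 and 6 and 0.740 and 0.722 in replicates 4 and 5 (log2 mean -0.09 ± 0.28, SD, n = 6; exact permutation p = 0.5), and COL6A3 to COL6A1 was 0.922, 0.888, 0.716 and 0.662 against 1.14 and 1.30 (log2 mean -0.13 ± 0.38; exact permutation p = 0.406, adjusted 0.5). Without replicates 4 and 5 COL6A1 to COL6A2 had a log2 mean of 0.09 ± 0.04 (SD, n = 4), above 1 in 4 of 4.

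The 5 pairs at the smallest p had the same direction in 6 of 6 pigs. COL3A1 to COL1A1 was 2.08, 2.73, 3.43, 11.2, 15.9 and 2.10 in replicates 1 to 6, with replicates 4 and 5 far above the rest. Its log2 mean was 2.14 ± 1.28 (SD, n = 6), and 1.34 without them. The ratio of COL5A2 to COL3A1, the gene pair of chromosome 15, was 0.0340, 0.0607, 0.0546, 0.0859, 0.0719 and 0.0576. COL15A1 was 6.23 to 13.1 times COL18A1. The ratio was 9.40 to 26.9 for COL8A1 to COL8A2 and 7.05 to 17.2 for COL4A5 to COL4A6. COL5A2 to COL3A1 and COL15A1 to COL18A1 had the smallest spread among these, with log2 means of -4.10 ± 0.45 and 3.04 ± 0.45 (SD, n = 6). In replicates 4 and 5, COL8A2 was at 0.0117 and 0.0351 deposited TPM and COL4A6 at 0.00982 and 0.0291, under the detection threshold of 0.1. With a pseudocount of 1 the log2 mean of COL8A1 to COL8A2 fell from 3.75 to 1.47. That of COL4A5 to COL4A6 fell from 3.48 to 1.10.

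**Figure D4:**
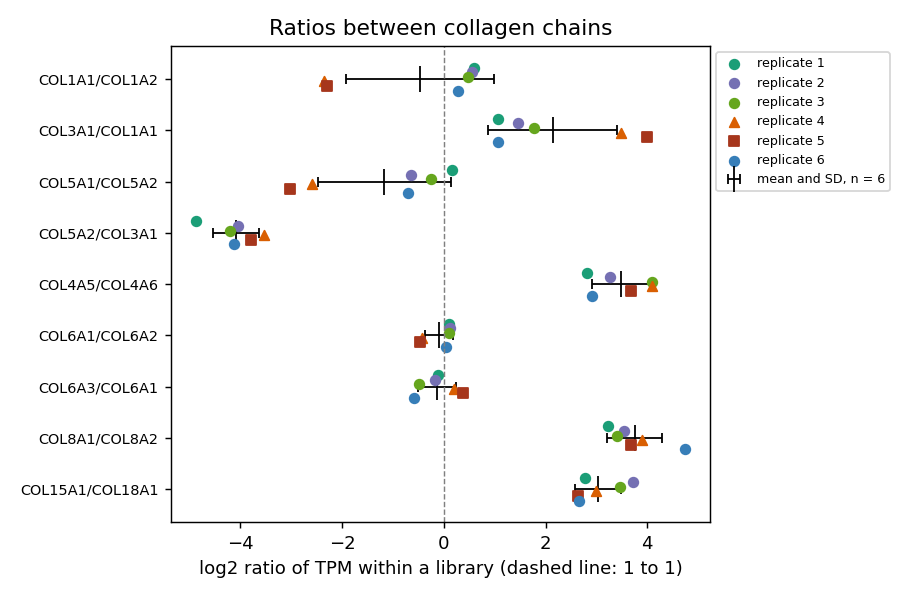
Ratio of TPM between 9 pairs of collagen chains in each of the 6 pig libraries (points, by replicate), as log2; black bars give the mean and SD and the dashed line a ratio of 1. As linear ratios, COL1A1 to COL1A2 was 1.20 to 1.52 in replicates 1, 2, 3 and 6 and 0.194 and 0.203 in replicates 4 and 5, while COL5A2 to COL3A1 stayed between 0.0340 and 0.0859 in the 6 libraries.

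The low values of replicates 4 and 5 were counted over the members. Of the 27 chains with a mean of at least 1 rescaled TPM, 11 lay in both libraries below the other 4 (COL1A1, COL5A1, COL27A1, COL6A1, COL6A2, COL6A3, COL4A2, COL4A4, COL12A1, COL16A1 and COL8A2), where 50.1% of all named nuclear genes did, and 0 lay above, where 10.4% did. The members' share was thus not above that of all genes. The multiplexins had 0 of 2 such chains, the FACITs 2 of 4, type IV 2 of 3, type VI 3 of 5 and the fibrillar class 3 of 8. With libraries centred on their median instead, 8 chains lay below (28.7% of all genes) and 2, COL18A1 and COL5A2, above (27.2%), so the calls depend on the scaling. COL16A1, COL4A4 and COL8A2 were below before median-centring but not after it, and COL5A2 and COL18A1 were above after it but not before. Among the 18 chains with a mean of at least 10, 8 lay below (48.6% of all genes at that level) and 0 above (12.3%). In deposited TPM 27 of 27 lay below, as did 98.2% of all genes, and 0 above, as did 0.0742%. By quantile normalization COL27A1 was no longer below either, so that 7 lay below (25.8%) and 1, COL18A1, above (27.4%). COL1A1, COL5A1, COL6A1, COL6A2, COL6A3, COL4A2 and COL12A1 lay below in each of these scalings. The share of all genes that did so was not counted. By quantile normalization these 7 were 25.9% of the 27 chains, against 25.8% of all genes.

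The values were then set against GC content. The deviation of a gene is the log2(rescaled TPM + 1) of a library minus the gene's median over the 6. Its median over all named nuclear genes was -0.31 in replicate 4 and -0.36 in replicate 5, and over the collagen chains it was -0.51 and -0.22. Among all genes with a RefSeq transcript, 56.1% of those at or above the median GC content lay below in both libraries, and 45.1% of those under it. Of the collagen chains, 9 of 16 at or above the median GC did, and 1 of 10 under it (COL12A1), a split that was chosen after the values were seen. The relation over all genes was weak and not even, as the share below rose from 36.4% in the lowest of 10 GC bins to 60.2% in bin 9 and was 50.5% in bin 10. The transcripts of COL1A1, COL5A1, COL4A2, COL6A2 and COL6A3 had GC contents of 62.3%, 68.4%, 67.5%, 65.0% and 58.4%, and those of COL1A2, COL3A1 and COL5A2 of 53.7%, 55.5% and 50.4%. COL5A3, at 62.5%, and COL18A1, at 70.9%, were also rich in GC and did not lie below in both libraries.

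The trend of all genes with length and GC content, taken as the median deviation of 10 by 10 bins, differed from the deviations of these chains. COL1A1 deviated by -2.51 in replicate 4 and -1.64 in replicate 5, where genes of its length and GC content deviated by -0.73 and -0.89. COL5A1 deviated by -1.86 and -1.19, against -0.75 and -0.63 for such genes, so that both chains lay below the trend. COL1A2 deviated by -0.11 and 0.70, against -0.63 and -0.69, and COL5A2 by -0.06 and 1.05, against -0.58 and -0.72, so that these chains lay above it. With this trend removed from each gene, COL1A1 to COL1A2 was 0.208 and 0.234 in replicates 4 and 5 and COL5A1 to COL5A2 was 0.188 and 0.116, near the values without it. Of 26 chains, 5 then lay below in both libraries (COL1A1, COL5A1, COL4A2, COL6A2 and COL6A3; 28.7% of all genes) and 5 above (COL5A2, COL5A3, COL16A1, COL18A1 and COL4A4; 23% of all genes). COL16A1 and COL4A4 thus changed sides. The part of GC content or of other properties of these libraries in the values was not tested further.

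**Figure D5:**
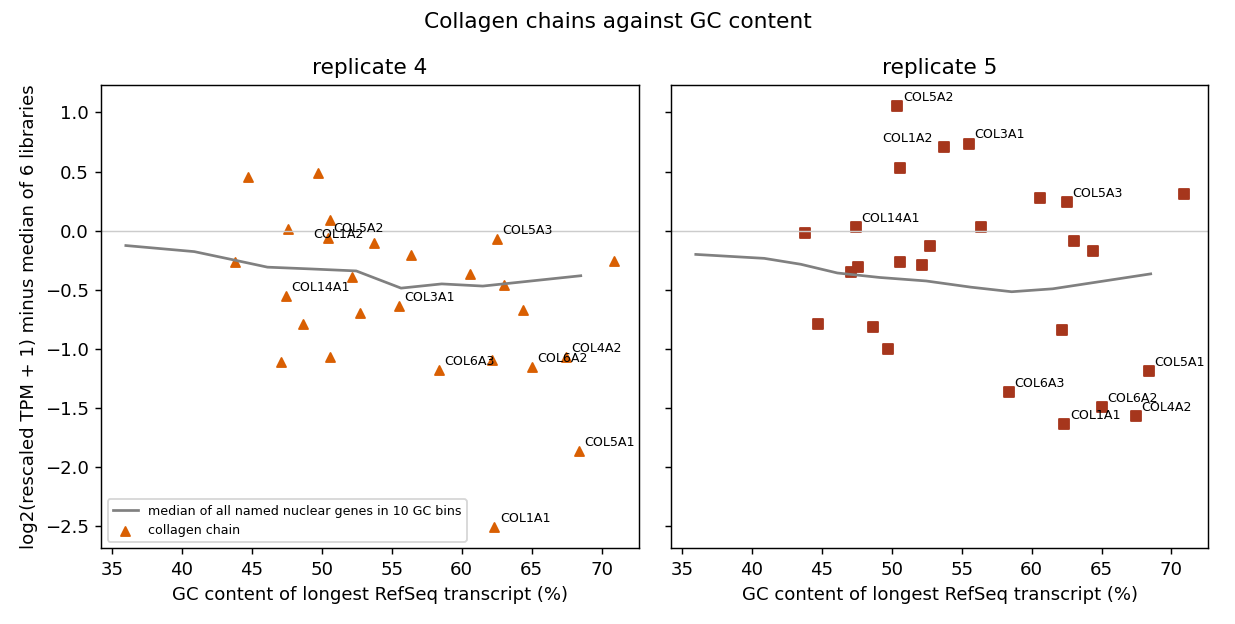
Deviation of each collagen chain, as the log2(rescaled TPM + 1) of replicate 4 or of replicate 5 minus the median of the 6 libraries, against the GC content of its longest RefSeq transcript in percent; the line gives the median of all genes by GC content. COL1A1 lay at -2.51 and -1.64 with a GC content of 62.3%, whereas COL5A3 lay at -0.07 and 0.24 with 62.5%.

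In rescaled TPM, summed markers of the stromal and vascular cell types were lowest in replicates 4 and 5 for each list examined. The median deviation of all named nuclear genes was also negative in these libraries, at -0.31 and -0.36. No other scaling was applied to the marker sums, so their order may depend on the scaling. Endothelial markers summed to 619 and 754 rescaled TPM in replicates 4 and 5 and to 1057 to 1360 in the other 4 libraries, smooth muscle and pericyte markers to 550 and 627 against 681 to 1095, macrophage markers to 367 and 227 against 478 to 568, and Schwann cell markers to 7.75 and 5.77 against 21.2 to 26.0. For fibroblasts and progenitors (PDGFRA, PDGFRB, DCN, LUM, DPP4 and PI16, 6 named of 7 listed) the sums were 4879 and 4793 against 5924 to 9342, most of which was DCN. In both libraries 4 of 6 fibroblast, 4 of 5 endothelial, 2 of 5 smooth muscle, 2 of 5 macrophage and 2 of 3 Schwann cell genes lay below the other 4, where 50.1% of all named nuclear genes did. The fibroblast genes PDGFRA and LUM did not. Adipocyte markers summed to 26565 and 35972 in replicates 4 and 5, against 18196 to 32509, and most of each sum was FABP4. Of these 6 genes, 2 (PLIN1 and PPARG) lay below in both libraries and 1 (CIDEC) above, where 50.1% and 10.4% of all genes did. Replicate 5, with the lowest fibroblast sum, had the second highest collagen share, 60.8% of which was COL3A1. Replicate 4, with the second lowest fibroblast sum, had the lowest collagen share. The part of these cells in the collagen values was not tested.

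Between libraries, the collagens had a higher median CV than all genes together. It was 0.456 over the 27 chains with a mean of at least 1 rescaled TPM, against 0.327 over all 12130 genes at that level, and 0.424 over the 18 chains with a mean of at least 10, against 0.282 over 8866. Without replicates 4 and 5 the medians over the 27 chains and the 12130 genes were 0.386 and 0.188. No test was made of these differences. With all libraries kept, the highest CVs were those of COL1A1 (0.853), COL8A2 (0.778), COL11A1 (0.774), COL28A1 (0.746) and COL8A1 (0.681), and besides COL18A1 the lowest were those of COL16A1 (0.206), COL5A3 (0.209) and COL15A1 (0.258). This order depends on replicates 4 and 5. Without them COL1A1 had 3366 ± 1901 rescaled TPM, against 2428 ± 2071 with them. For COL6A1 the values were 1294 ± 235 and 962 ± 547 (mean and SD, n = 4 and n = 6).

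The genes that make, export and bind collagen were examined beside the chains, from a list of 42 of which 38 were named and 37 had a mean of at least 1 rescaled TPM. Of these, 21 lay below the other 4 libraries in both replicates 4 and 5, which was 56.8% against 50.1% of all named nuclear genes, and 3 (P4HB, PPIB and DDR1) lay above, where 10.4% of all genes did. By median-centring 12 lay below and 4 above (28.7% and 27.2% of all genes). Their median CV was 0.345.

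In the endoplasmic reticulum, prolines of the chains are hydroxylated and the helix is folded. Of 15 genes with these roles, 5 lay below in both libraries and 2 above, against 50.1% and 10.4% of all genes. P4HB, the disulfide isomerase that is also a subunit of prolyl hydroxylase, had 217, 166, 164, 332, 334 and 179 rescaled TPM in replicates 1 to 6, with replicates 4 and 5 highest. SERPINH1, the collagen chaperone, had 185, 332, 180, 116, 236 and 110, and P4HA1, a catalytic subunit of prolyl hydroxylase, 110, 138, 90.1, 137, 108 and 86.3. In neither did replicates 4 and 5 stand apart.

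Of the 9 genes for export and for cleavage of the propeptides, 8 lay below in both libraries and 0 above, against 50.1% and 10.4% of all genes. This count depends on the scaling, since by median-centring and by quantile normalization it was 3 of 9, where 28.7% and 25.8% of all genes lay below. PCOLCE, which enhances the removal of the C-propeptide, had 547, 326, 400, 143, 145 and 307 rescaled TPM, its relative PCOLCE2 had 231, 178, 167, 137, 93.1 and 298, and MIA3, which loads collagen into transport carriers, had 160, 167, 147, 95.4, 77.2 and 178. In these 3 genes replicates 4 and 5 were the lowest.

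Of the 5 cross-linking enzymes, 3 lay below in both libraries, near the 50.1% of all genes. LOX, the lysyl oxidase, had 507, 450, 439, 243, 174 and 560 rescaled TPM. LOXL2 had 74.0, 94.4, 95.5, 31.9, 71.7 and 87.0, and LOXL1, which lay between 8.64 and 12.5, had its lowest value in replicate 4. Of the 8 receptors with a mean of at least 1, 5 lay below and 1 above, against 50.1% and 10.4% of all genes. ITGB1, the β subunit of the collagen-binding integrins, had 532, 685, 698, 530, 494 and 713, DDR2, a receptor kinase for fibrillar collagen, had 171, 109, 128, 93.8, 72.4 and 189, and ITGA1 had a mean of 81.6. The platelet receptor gene GP6 was listed at 0 in 3 libraries.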

How the data were processed

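RNA-seq of total RNA depleted of ribosomal RNA was described per pig, in 1 group of 6. The authors quantified genes with Kallisto (version 0.43.0 in the submitters' processing notes) and deposited TPM, 1 table per species. Every column sums to the same total, and depth and counting error are unknown. The study names Sscrofa11.1 as the pig genome.

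Symbols were matched by gene ID. TPM were rescaled over the 14844 named nuclear genes of each library. Low-level filters were means of at least 1 or 10 rescaled TPM, and a gene was called below (or above) when replicates 4 and 5 both lay below (or above) the other 4. The members, classes, pairs, pathway list and markers were chosen with earlier results of these data known. Log2 chain ratios were tested against 0 by exact two-sided sign-flip permutation over pigs (scipy 1.17.1), adjusted by Benjamini-Hochberg over 9 pairs; ratios used no pseudocount, deviations a pseudocount of 1.

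Values are given in every library for chains of types I, III, IV, V and VI with a mean of at least 10 rescaled TPM, other chains with at least 50, the 5 of largest CV, the chains of each pair, and the 3 most abundant genes per pathway role. Coordinates, exons and sequences are 1-based from the RefSeq annotation of Sscrofa11.1, matched by symbol, with the longest transcript of each gene; length and GC content were known for 11293 of 12130 genes (93.1%). Scripts used Python 3.11.15, pandas 2.3.3, numpy 2.4.6 and pysam 0.24.0 and were tested on simulated data. Alternatives were other scalings, filters and pseudocounts, each library left out in turn, replicates 4 and 5 left out together and, added after the data were seen, removal of a length and GC trend. The rat table, also TPM, was not used.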

Additional observations from a re-analysis of the deposited data

Results flagged for a closer look

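In 41 sets of 6 values (levels of chains, shares of classes, chain ratios and the total share), 3 held a library whose gap to the nearest other library was large for the range of the set by Dixon's criterion, which chance alone meets in about 1 set in 20. A count of 3 in 41 is near that rate. The sets are also not independent, as shares and ratios reuse the levels. COL5A2, an α2 chain of type V collagen, was at 816 rescaled TPM in replicate 5, against 339 to 438 in the other 5 libraries. COL6A6, which can stand in for the α3 chain of type VI, was at 175 rescaled TPM in replicate 1, against 70.1 to 100.5 in the others. COL11A1, a cartilage fibril chain, was at 6.81 rescaled TPM in replicate 2, against 1.12 to 2.41 in the others.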

How the results depend on the processing

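No paired analysis was possible because the pigs form 1 group and share only numbers with the rat pools, so no replicate block could be fitted. The planned pair COL4A1 to COL4A2 had no value. Leaving out each library in turn changed no direction or call of the totals, class shares, ratios, median CV, levels and number of detected chains, and was not run for the counts of chains below or above in replicates 4 and 5, but with 5 pigs the smallest exact p is 0.0625, so no ratio could pass. Without replicates 4 and 5 the log2 ratio turned from -0.46 to 0.48 for COL1A1 to COL1A2 and from -0.09 to 0.088 for COL6A1 to COL6A2. With the length and GC trend removed, an alternative added after the data were seen, 6 pairs had values, and because fewer pairs were adjusted, COL3A1 to COL1A1 (2.10), COL5A2 to COL3A1 (-4.09), COL8A1 to COL8A2 (3.69) and COL15A1 to COL18A1 (2.97) passed, each at an exact permutation p adjusted to 0.046875. Of all deposited TPM, collagens held 0.356% instead of 1.79% of named nuclear TPM. At over 1 TPM, 23 chains were detected in at least 1 library. The median CV was 0.773 in deposited TPM. Of 27 chains, 11 had replicates 4 and 5 both below, where 50.1% of all genes did. In deposited TPM the count was 27 (98.2% of all genes) and by quantile normalization 7 (25.8%). With the trend removed it was 5 of 26 (28.7%). Chains above numbered 0, where 10.4% of all genes lay above, and 2 by median-centring (27.2%). They numbered 1 by quantile normalization (27.4%) and 5 of 26 with the trend removed (23%). Of the 37 pathway genes, 12 and 11 lay below by median-centring and by quantile normalization (28.7% and 25.8% of all genes), against 21 (50.1%). By quantile normalization 8 lay above (27.4% of all genes), against 3 (10.4%). Of the 9 for export and cleavage, 3 lay below by either scaling, against 8, with the same shares of all genes. These scalings of the pathway genes were added after the data were seen. The depth is unknown, so no limit of detection can be given for the chains listed at 0.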
